A study of Mus musculus with 31 samples.

Results

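The 49 genes described here encode the parts of the Wnt signalling pathway from ligand to transcription factor: 19 Wnt ligands, 3 proteins of ligand secretion and inactivation, 12 receptors, 4 extracellular antagonists, 7 cytoplasmic and 4 nuclear proteins. They were named by symbol as a fixed list, and all 49 were found among 21887 protein-coding genes of the RefSeq annotation of GRCm38.p6, the assembly also called mm10. H3K4me3, the histone mark of gene starts, and H3K4me1, a mark typical of enhancers, were profiled by ChIP-seq in hippocampus from 30-day-old C57BL6 mice. Wild type mice (KMT2D+/+, WT in the figures) and mice carrying 1 bGeo allele (KMT2D+/bGeo, heterozygotes, Het in the figures) received TAK-418, an LSD1 inhibitor, at 1 mg/kg/day by gavage for 2 weeks from 2 weeks of age, or methylcellulose vehicle alone. Each of the 4 groups had 4 H3K4me3 libraries, each from another mouse. H3K4me1 was read in the same mice, with 15 libraries, since wild type TAK-418 had 3. Sex is not given in the labels. H3K4me3 peaks on the Y chromosome were called in 1 of 4 mice in wild type vehicle, 3 of 4 in heterozygote TAK-418 and 2 of 4 in each remaining group, the same mice as in H3K4me1 wherever both marks were read (15 of 15), and the part of this in the comparisons was not tested. The antibodies read tissue with mixed cell types, and the peaks hold no measure of KMT2D itself, so the genotype labels could not be checked here.

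Wnt ligands are secreted lipid-modified proteins. PORCN attaches the lipid and WLS carries the ligand to the cell surface, where it binds a Frizzled receptor together with LRP5 or LRP6. Dishevelled proteins then hold back the complex of AXIN, APC and kinases that otherwise destroys β-catenin, and β-catenin enters the nucleus to act with LEF1 and the TCF proteins. In the hippocampus the pathway is known for its part in the formation of the dentate gyrus and in adult neurogenesis. KMT2D is a methyltransferase and LSD1 a demethylase of histone H3 lysine 4, the residue whose methylation was profiled.

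The libraries fell into very unequal sets, and this touches every result. In 4 H3K4me3 libraries, 1 per group (heterozygote TAK-418 3, heterozygote vehicle 2, wild type TAK-418 3 and wild type vehicle 3), the authors' lists held 13343 to 16750 peaks, and 55.1% to 60.1% of protein-coding genes had a peak within 2 kb of either end. In the other 12 the lists held 302 to 2281 peaks and reached 0.224% to 8.93% of genes. The 4 rich libraries carry sequencing indices of other index sets (1-2, inferred from the index in the labels) than the 12 sparse ones (3-4). All 15 H3K4me1 lists were sparse, with 88 to 456 peaks, although these libraries carry indices of sets 1-2 like the 4 rich ones. Depth is unknown, since the lists hold no read counts, so a missing peak in a sparse library is a peak not called and not an absent mark. In bulk tissue, fewer cells of a type and less mark per cell cannot be told apart. In the 4 rich libraries, 7 or 8 of 10 markers of excitatory hippocampal neurons had a peak, against 0 or 1 of 6 for microglia and 0 or 1 of 5 for blood cells, whose defining genes Cx3cr1, P2ry12, Ptprc, Hba-a1 and Hbb-bs had none in any of the 4.

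H3K4me3 stood at most of the pathway in the 4 rich libraries. A peak lay within 2 kb of a gene end at 42 of 49 genes in wild type TAK-418 3, 40 in heterozygote vehicle 2, 39 in heterozygote TAK-418 3 and 38 in wild type vehicle 3. In all 4 libraries 36 genes had one, 10 had one in some, and 3 (Wnt8a, Wnt8b and Axin1) in none. By role, all 12 receptors, all 4 nuclear factors and all 3 genes of secretion and inactivation were marked in all 4 libraries. Of 19 ligands, 9 were. Single rich libraries had a peak at 77.6% to 85.7% of the 49 genes, against 55.1% to 60.1% of all genes. The share of all genes marked in all 4 libraries was not counted, so the counts over all 4 have no such baseline. Many of the peaks at the 49 genes were weak, since a −log10 q of at least 5, as the authors' caller gave it, left 8 to 27 genes per library.

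**Figure D1:**
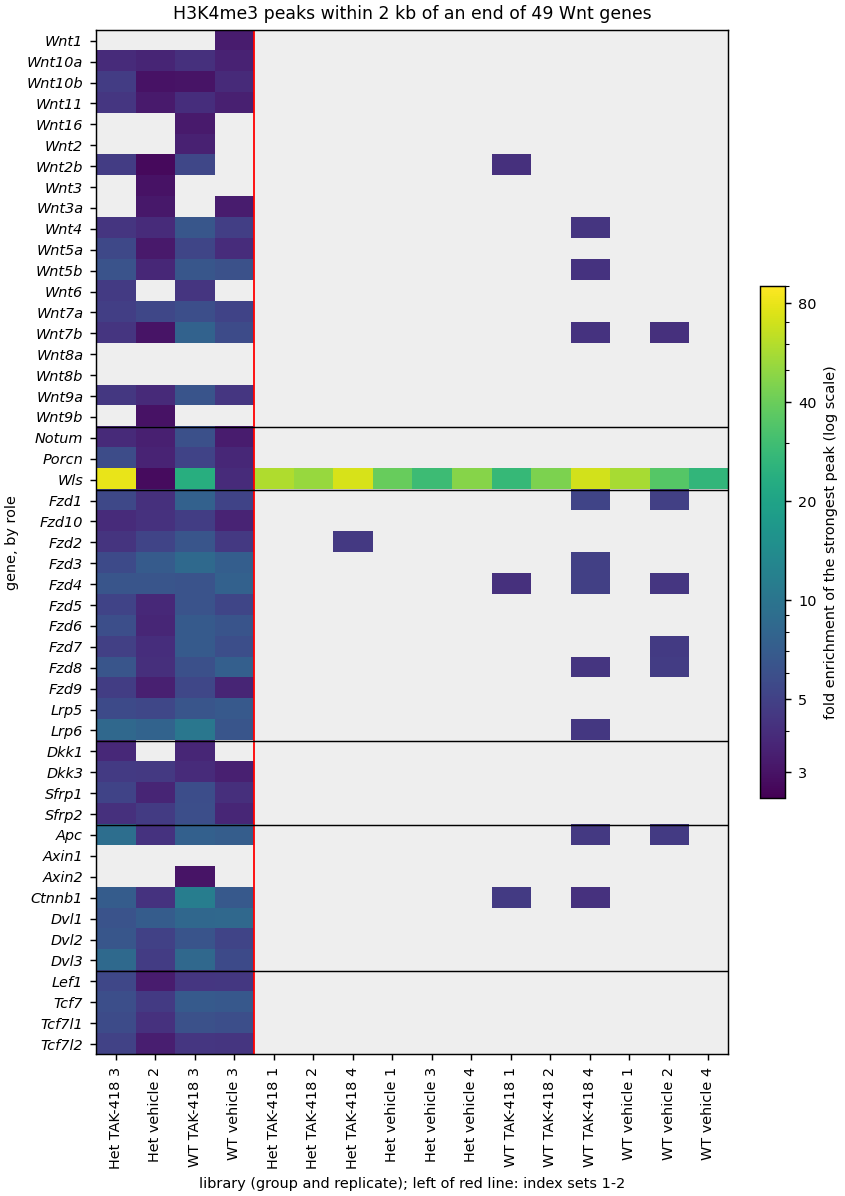
Fold enrichment, on a log colour scale, of the strongest H3K4me3 peak within 2 kb of an end of each gene (rows, grouped by role from ligands at the top to nuclear factors at the bottom) in each of 16 libraries (columns); grey means that no peak was called. The 4 libraries left of the red line have peaks at 38 to 42 of 49 genes, and right of it Wls alone has a peak in all 12.

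Among the ligands, Wnt4, Wnt5a, Wnt5b, Wnt7a, Wnt7b, Wnt9a, Wnt10a, Wnt10b and Wnt11 had a peak in all 4 rich libraries. Wnt5a, a ligand best known for β-catenin-independent signalling, had the widest: 3330 bp in wild type TAK-418 3, 3237 bp in heterozygote TAK-418 3, 3008 bp in heterozygote vehicle 2 and 2068 bp in wild type vehicle 3. These widths exceeded those at 92.8% to 97.7% of all genes with a peak in the same library. Wnt7a and Wnt7b, both ligands that act in the brain and its vessels, had mean widths of 1517 ± 461 bp and 1786 ± 296 bp (SD, n = 4). At the other extreme, Wnt10a had narrow peaks of 673 ± 249 bp (SD, n = 4). Those of Wnt10b, of 306 to 773 bp, were no single site: in heterozygote TAK-418 3 and wild type vehicle 3 they lay 5149 and 5183 bp from the RefSeq start, and in the other 2 libraries 245 and 1360 bp from it. Over the 36 genes marked in all 4 libraries, the widest peaks of the 4 shared a stretch at 33, the exceptions being Wnt10b, Fzd10 and Porcn.

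The other 8 ligand genes with a peak were marked at an end in only some of the 4 libraries. Wnt2b had a peak in 3 of them, Wnt3a and Wnt6 in 2, and Wnt1, Wnt2, Wnt3, Wnt9b and Wnt16 in 1. The single peak of Wnt3 and that of Wnt9b are the same 316 bp peak in heterozygote vehicle 2, because the annotated ends of these genes overlap. Wnt1, the founding ligand of the family, had 1 peak, of 343 bp, in wild type vehicle 3. A peak farther inside the gene was called at some of these genes: Wnt3 carried one of 797 to 2253 bp in all 4 libraries, between 7374 and 7593 bp from the nearer annotated end, and Wnt8b one in 2 libraries. Wnt8a was the sole ligand with no peak at an end or inside in any of the 4.

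Porcn, a gene of ligand secretion, and Notum, one of ligand inactivation, had modest peaks in the 4 rich libraries. They measured 463 to 1116 bp at the upper annotated end of Porcn. At Notum they measured 1615, 571, 948 and 342 bp in wild type TAK-418 3, heterozygote TAK-418 3, heterozygote vehicle 2 and wild type vehicle 3.

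The Frizzled receptors were broadly marked. Over the 10 Frizzled genes the median width of the widest peak was 2204 bp in wild type TAK-418 3, 2286 bp in heterozygote TAK-418 3, 2282 bp in heterozygote vehicle 2 and 1748 bp in wild type vehicle 3. The medians over all genes with a peak were 1142, 1134, 997 and 950 bp in the same order. Fzd1 (2906 ± 590.5 bp), Fzd8 (2849 ± 545 bp), Fzd2 (2795 ± 699 bp) and Fzd5 (2773 ± 894 bp; SD, n = 4 each) were, with Wnt5a, the 5 widest of all 36 genes marked in all 4 libraries. These Frizzled genes are short, from 3.35 kb for Fzd8 to 7.19 kb for Fzd5, so that a peak of this width takes up much of the gene and the region within 2 kb of both ends covers most of it. Fzd6, 32.0 kb long, was narrow in comparison, at 755 ± 354 bp (SD, n = 4). Widths also varied between the libraries: Fzd9 spanned 2547 bp in wild type vehicle 3 but 761 bp in heterozygote vehicle 2. Fzd10 had peaks of 1487 to 2986 bp over its start in 3 libraries, and in wild type vehicle 3 only a separate peak of 275 bp, 1811 bp before the gene.

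The co-receptor Lrp6 had peaks of 1774, 1850, 1955 and 1720 bp in wild type TAK-418 3, heterozygote TAK-418 3, heterozygote vehicle 2 and wild type vehicle 3. Taking the widest peak of each gene, it had the highest mean fold enrichment of the 36 genes, 8.25, with single values from 6.44 to 10.3. A narrow peak past Wls, described further on, was stronger, at 23.7 fold in wild type TAK-418 3 and 80.5 in heterozygote TAK-418 3. Lrp5, the relative of Lrp6, reached 6.04 ± 0.69 fold (SD, n = 4). The widest peak was not the strongest: Wnt5a had a mean fold of 4.47 ± 1.09, and Dvl1, with a mean width of 1414 bp, had 7.47 ± 1.02 (SD, n = 4 each).

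Of the antagonists, Dkk3, Sfrp1 and Sfrp2 were marked in all 4 libraries, with mean widths of 1324, 878 and 919 bp. Dkk1, which blocks LRP5 and LRP6, had peaks of 297 and 420 bp in the TAK-418-treated libraries of the 4 and none in the vehicle libraries. With 1 library per group this gives no test of treatment.

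In the cytoplasm, the 3 Dishevelled genes, Apc and Ctnnb1, which encodes β-catenin, were marked in all 4 libraries at mean folds of 5.76 to 7.47. Their widths were moderate, from 737 ± 153 bp at Dvl2 to 1414 ± 425 bp at Dvl1 (SD, n = 4). In all 4 libraries the widest peak of Dvl2 also lay at an end of Phf23, that of Fzd4 at Tmem135 and that of Wnt5b at Gm52875, so these cannot be assigned to the Wnt gene alone. Axin2, a scaffold protein and a classical target of β-catenin, and Axin1 were the exceptions. At an annotated end Axin2 had a single peak, of 320 bp in wild type TAK-418 3, and Axin1 had none. Farther in, Axin2 carried a broad peak of 1922 to 3818 bp and 5.03 to 9.48 fold in all 4 libraries, 0 to 59 bp from a start in the RefSeq promoter table but 2393 to 2580 bp from the nearer annotated gene end. Axin1 carried peaks of 977 to 1122 bp in all 4, 7164 to 7246 bp inside the gene.

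The nuclear factors Tcf7l2 (2602 ± 374 bp), Lef1 (2494 ± 265 bp), Tcf7l1 (1469 ± 146 bp) and Tcf7 (1324 ± 530 bp; SD, n = 4 each) were all marked. Lef1 and Tcf7l2 were wider than 87.7% to 97.4% of marked genes in every one of the 4 libraries. The order of widths over the 49 genes was broadly shared: Spearman's rho between pairs of the 4 libraries ran from 0.547 to 0.727 over 36 to 39 genes with a peak in both, as a description, since the pairs share the genes and their base composition. A second list of 55 pathway genes (R-spondins, LGR receptors, kinases, planar polarity genes and others) had 44 marked in all 4 libraries, 7 in some, and 4 (Dkk4, Dkkl1, Sfrp5 and Csnk1e) in none.

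**Figure D2:**
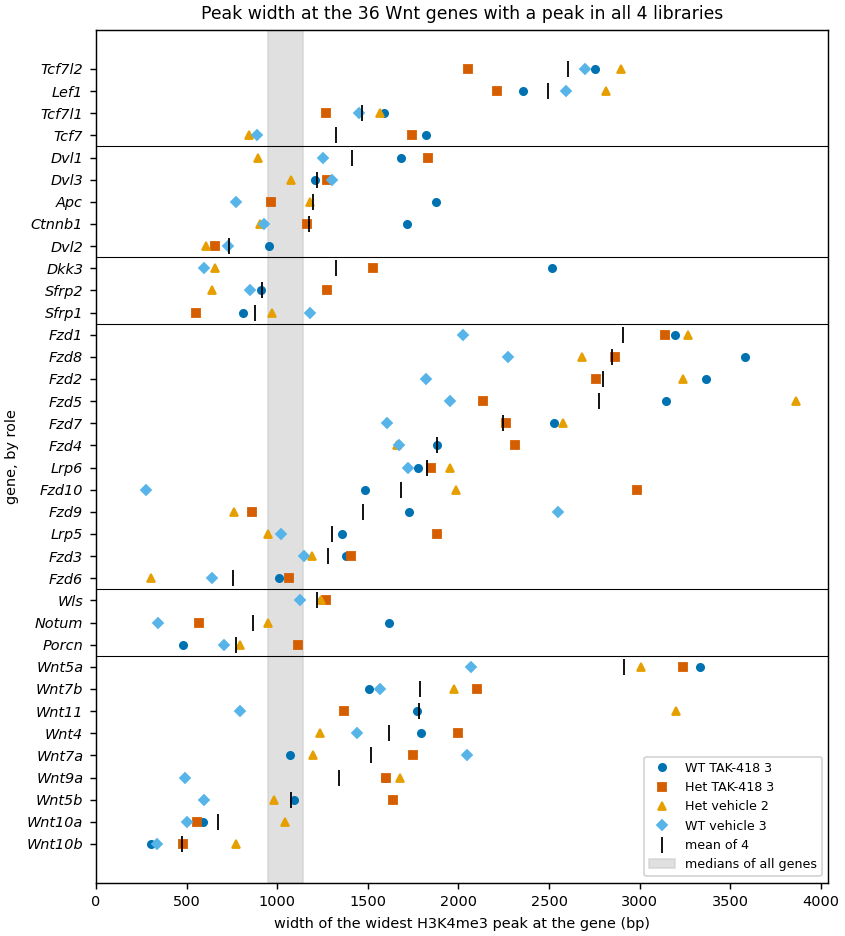
Width in bp of the widest H3K4me3 peak within 2 kb of a gene end in the 4 peak-rich libraries (symbols; 1 library of each group), with the mean of the 4 as a black bar, for the 36 genes with a peak in all 4; the grey band spans the medians over all marked genes in the 4 libraries, 950 to 1142 bp. Wnt5a, Fzd1, Fzd8, Fzd2 and Fzd5 have the largest means, from 2773 to 2911 bp.

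In the 12 sparse libraries few peaks were called at the pathway apart from Wls. Wild type TAK-418 4 had peaks at 11 of 49 genes (22.4%, against 5.92% of all genes), among them Wnt4, Wnt5b, Wnt7b, Fzd1, Fzd3, Fzd4, Fzd8, Lrp6, Apc and Ctnnb1. Wild type vehicle 2 had 7 (14.3%, against 8.93%): Wnt7b, Fzd1, Fzd4, Fzd7, Fzd8, Apc and Wls. Wild type TAK-418 1 had peaks at Wnt2b, Fzd4 and Ctnnb1 beside Wls, heterozygote TAK-418 4 at Fzd2 beside Wls, and the other 8 libraries at Wls alone. Fzd4 was thus the most often called after Wls, in 3 of 12. All of these genes apart from Wnt2b were also among those marked in all 4 rich libraries.

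Promoter sequences are shown for the 3 genes whose RefSeq start window (250 bases before to 50 after the start, GRCm38.p6) was overlapped by a region of the authors' differential lists, described further on, and, chosen after their values were seen, for Wls and Wnt8b as genes with a peak and with none at the start. CpG dinucleotides are in capitals. They numbered 51 in Wnt4 (chr4:137277385-137277684, plus strand), 51 in Ctnnb1 (chr9:120933328-120933627, plus strand), 47 in Wnt5b (chr6:119544298-119544597, minus strand), 11 in Wls (chr3:159839400-159839699, plus strand) and 6 in Wnt8b (chr19:44493222-44493521, plus strand). Over all 32851 windows of the table the median was 7.
Wnt4: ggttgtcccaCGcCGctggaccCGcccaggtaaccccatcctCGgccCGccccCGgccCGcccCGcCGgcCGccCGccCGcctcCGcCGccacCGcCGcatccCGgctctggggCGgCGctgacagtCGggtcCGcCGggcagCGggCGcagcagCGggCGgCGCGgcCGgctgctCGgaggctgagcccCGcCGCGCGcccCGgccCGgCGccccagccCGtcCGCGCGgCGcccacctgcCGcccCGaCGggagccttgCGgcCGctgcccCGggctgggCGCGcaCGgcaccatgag
Ctnnb1: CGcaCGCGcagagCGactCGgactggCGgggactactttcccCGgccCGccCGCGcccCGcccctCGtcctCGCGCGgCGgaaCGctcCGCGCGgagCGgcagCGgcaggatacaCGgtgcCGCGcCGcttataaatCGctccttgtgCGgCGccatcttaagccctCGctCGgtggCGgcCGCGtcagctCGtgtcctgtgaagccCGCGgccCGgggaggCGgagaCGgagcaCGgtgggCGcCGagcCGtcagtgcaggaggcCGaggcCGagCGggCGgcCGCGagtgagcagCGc
Wnt5b: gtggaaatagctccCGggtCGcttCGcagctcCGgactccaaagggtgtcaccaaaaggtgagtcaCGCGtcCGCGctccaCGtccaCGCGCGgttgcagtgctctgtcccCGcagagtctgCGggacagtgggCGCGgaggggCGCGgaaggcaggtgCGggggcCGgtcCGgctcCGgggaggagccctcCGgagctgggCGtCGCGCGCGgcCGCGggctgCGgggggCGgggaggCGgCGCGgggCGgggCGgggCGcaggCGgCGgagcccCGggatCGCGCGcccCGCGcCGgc
Wls: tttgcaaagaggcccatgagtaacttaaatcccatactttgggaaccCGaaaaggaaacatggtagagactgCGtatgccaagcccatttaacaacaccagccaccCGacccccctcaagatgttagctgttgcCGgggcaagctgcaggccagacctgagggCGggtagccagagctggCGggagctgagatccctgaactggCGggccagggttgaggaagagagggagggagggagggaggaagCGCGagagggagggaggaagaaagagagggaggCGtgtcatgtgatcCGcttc
Wnt8b: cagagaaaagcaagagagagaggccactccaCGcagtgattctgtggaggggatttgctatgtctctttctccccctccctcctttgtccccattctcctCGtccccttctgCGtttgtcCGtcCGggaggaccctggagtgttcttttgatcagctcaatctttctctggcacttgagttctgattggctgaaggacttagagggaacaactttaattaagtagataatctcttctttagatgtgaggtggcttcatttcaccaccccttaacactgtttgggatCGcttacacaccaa

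The Wnt4 and Wnt5b windows lay under a peak in all 4 rich libraries and that of Ctnnb1 in 3. Of the 49 genes 33 had a window in the table. The highest CpG count among a gene's windows ranged from 11 to 58, with a median of 34.5, over the 22 of these marked in all 4 libraries. Over the 10 marked in some it ranged from 9 to 45, with a median of 28, so the sets overlapped. Marking was scored here at the annotated gene ends and not at the windows. Axin2, with 31 CpG, was among the 10 but had a peak 0 to 59 bp from a listed start in all 4 libraries. Wnt10b was among the 22, with peaks 5149 and 5183 bp from its start in heterozygote TAK-418 3 and wild type vehicle 3. The TCF/LEF core CTTTGA, searched on both strands (the other strand reads TCAAAG), was in none of the 5 windows printed. It was in 5 of 42 windows of the pathway genes (11.9%), among them windows of Dkk1, Fzd1, Lef1, Wnt5b and Wnt11, and in 5257 of the 32851 windows of all genes.

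Wls, which encodes the carrier that brings Wnt ligands to the cell surface, had peaks at its start and past its far end. At its start, in the 4 rich libraries only, lay an H3K4me3 peak of 1126 to 1270 bp. Its fold was 7.40 in heterozygote TAK-418 3, 5.66 in wild type TAK-418 3, 3.87 in wild type vehicle 3 and 2.76 in heterozygote vehicle 2. Past its far end, on the other side of a gene 99.0 kb long, lay a narrow and very strong one. The stretch shared by all peaks there is 238 bp long (chr3:159939440-159939677, mm10) and begins 774 bp beyond the annotated end of the gene (chr3:159839650-159938666, plus strand), in sequence that lies in no exon or intron of Wls.

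The peak past Wls was called in 14 of 16 H3K4me3 libraries, including all 12 sparse ones, and in 13 of 15 H3K4me1 libraries. Its H3K4me3 fold enrichment was 58.5, 51.7, 80.5 and 72.2 in the heterozygote TAK-418 libraries 1 to 4, and 38.9, 29.2 and 47.2 in heterozygote vehicle 1, 3 and 4. It was 27.6, 44.4, 23.7 and 70.7 in wild type TAK-418 1 to 4, and 56.2, 34.8 and 26.3 in wild type vehicle 1, 2 and 4. The heterozygote groups, 4 TAK-418 against 3 vehicle libraries with a peak, did not overlap, and the wild type groups did. How often folds at other peaks of these groups stayed apart was not counted. The deposited scores of the heterozygote groups at this place, described further on, overlapped. No peak was called there in heterozygote vehicle 2 and wild type vehicle 3, both among the 4 rich libraries. Every other H3K4me3 peak at the 49 genes had a fold between 2.70 and 11.4, with a median of 4.65 over 192 peaks.

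The H3K4me1 peak at the same place was as strong and as narrow. Its fold ranged from 28.2 to 89.1 with a median of 59.8, against 45.8 for H3K4me3. Its width ranged from 240 to 281 bp, and the median widths were 260 bp for H3K4me1 and 267 bp for H3K4me3. One H3K4me3 peak, in wild type TAK-418 1, was 1012 bp wide and reached back to 2 bp past the gene end. Apart from this region, the H3K4me1 lists held 1 peak at the 49 genes, of 238 bp and 4.13 fold at Wnt9a in heterozygote TAK-418 2. When overlapping peaks of all libraries were merged, 138 intervals of the genome held peaks from 8 or more libraries for H3K4me3 and also for H3K4me1. They lay at the ends of 56 of 21887 genes, and Wls was the sole pathway gene among them. Why antibodies against different methylation states gave the same narrow peak, and what control the authors' fold is relative to, was not tested. Nor was it tested whether this peak reflects H3K4 methylation or has any part in Wls.

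**Figure D3:**
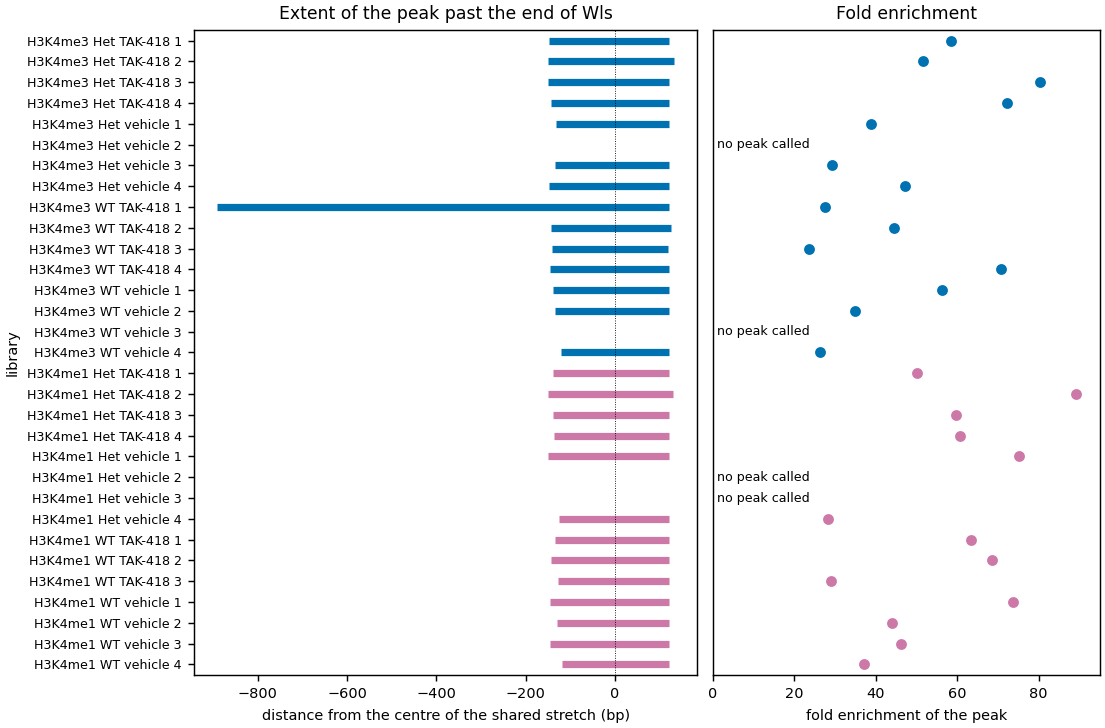
Left, extent of the peak past the end of Wls in each library, as distance in bp from the centre of the stretch shared by all peaks; right, fold enrichment of the same peak as the authors' caller gave it (blue, H3K4me3; pink, H3K4me1). The peaks of both marks span the same 238 bp at 23.7 to 89.1 fold, and 2 libraries of each mark have no called peak.

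The authors' differential H3K4me3 lists were then read for the 49 genes, to ask where genotype and drug were reported to move the mark. Each list names regions with a −log10 p of at least 1.3 and gives, for either group, 1 whole-number score for each library. The score does not name its library, so the 4 values of a group were treated as unordered replicates. At 31 of 32 groups of scores at the listed pathway regions other than Wls, the highest value stood at the position that was highest at most listed regions at gene ends (75.0% to 95.3% of them by list and group). That position, 3 in 3 groups and 2 in heterozygote vehicle, has the same number as the peak-rich library of the group, but the lists do not say that positions follow replicate numbers. At Wls that same position was the lowest in 6 of 6 groups. Tests used log2(score + 1), in limma over each whole list and as a two-sided exact permutation test per region, where 4 against 4 cannot give less than p = 0.0286. The authors had selected the listed regions for a difference between the same groups. The p-values given here therefore come after selection and are not an independent test.

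In all, 13 of 49 genes had a region in at least 1 list within 2 kb of an end (26.5%, against 17.5% of all genes), and 36 had none. The shares of all genes given here include genes with no peak. In single rich libraries 77.6% to 85.7% of the 49 genes had a peak, against 55.1% to 60.1% of all genes. Listed shares among marked genes alone were not counted. Wls is counted only through the region past its end. In heterozygote against wild type vehicle, 3 genes (6.12%) had a region listed as lower, Apc, Dvl1 and Fzd4, against 6.95% of all genes, and 0 as higher, against 0.352%. In heterozygotes, TAK-418 against vehicle listed Wls as higher and Fzd3 as lower, 2.04% of the genes each, against 2.19% and 2.12% of all genes. In wild type mice, TAK-418 against vehicle listed 8 genes (16.3%) as higher, against 5.87%, and Fzd8 as lower, 2.04% against 4.4%. Heterozygote TAK-418 against wild type vehicle listed 4 as lower (8.16% against 9.1%), Apc, Dvl1, Fzd4 and Fzd8, and Wls as higher (2.04% against 0.749%). Of the 4 comparisons, 3 share the wild type vehicle libraries, and 2 share the heterozygote vehicle and 2 the heterozygote TAK-418 libraries, so a gene in several lists is not several observations.

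No listed region passed limma's test at an adjusted p under 0.05 in any of the 4 comparisons: 0% of 2015, 1715, 2780 and 2722 regions, with unadjusted p under 0.05 at 66, 3, 49 and 104, and an exact permutation p under 0.05 at 41, 6, 15 and 11, in the order above. Scores of the compared groups were fully apart at 2.03%, 0.35%, 0.54% and 0.404% of listed regions. Among the pathway regions they were fully apart at 0 of 3, 0 of 2, 1 of 9 and 0 of 5. Without the highest position of each group, a comparison of 3 against 3 added after the data were seen, they were apart at 25.6%, 21.5%, 21% and 36.1% of listed regions and at 0 of 3, 1 of 2, 4 of 9 and 2 of 5 of the pathway regions. The directions below are therefore the authors' listing and the means, and not calls of the tests used here.

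**Figure D4:**
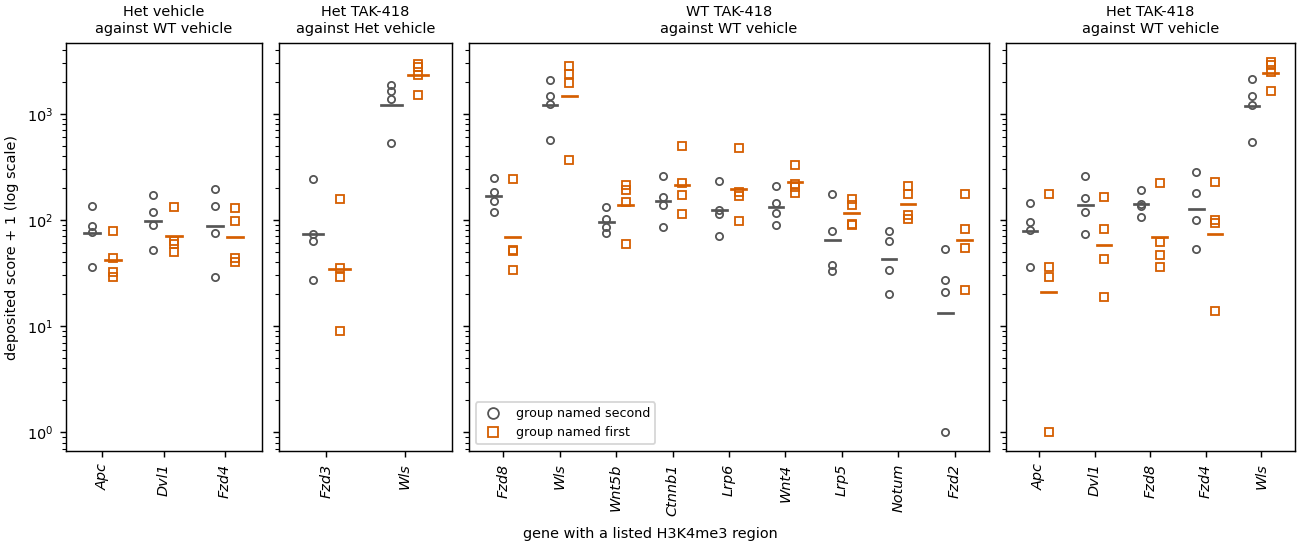
Deposited H3K4me3 score plus 1 (log axis) at each listed region within 2 kb of an end of a Wnt gene, in the 4 comparisons; each symbol is 1 library, circles are the group named second and squares the group named first, and bars are means on the log2 scale. Notum in wild type mice is the region whose groups do not overlap, and Wls scores lie between 366 and 3079 while all others lie between 0 and 493.

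The ligands Wnt4 and Wnt5b were listed in wild type mice alone, both as higher with TAK-418. At Wnt4 the region (chr4:137277251-137278250) covers the start and the window printed above. Its scores were 145, 115, 206 and 88 with vehicle and 203, 217, 327 and 179 with TAK-418. The mean was 139 ± 51 against 232 ± 66 (SD, n = 4), a log2 difference of 0.77 with an SE of 0.72 (exact permutation p = 0.0857, limma adjusted p = 0.77). The highest vehicle score exceeded the 2 lowest TAK-418 scores, and without the highest position of each group the values did not overlap, 116 ± 29 against 200 ± 19 (SD, n = 3), at p = 0.1, the smallest an exact test of 3 against 3 can give. At Wnt5b, where the region (chr6:119543951-119544600) also covers the printed window, the scores were 84, 100, 132 and 75 with vehicle and 189, 58, 214 and 146 with TAK-418. One TAK-418 score was below all vehicle scores, and the log2 difference was 0.51 with an SE of 0.73 (exact permutation p = 0.314), from 0.29 without TAK-418 position 3 to 0.91 without TAK-418 position 2.

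Notum, which encodes the secreted enzyme that removes the lipid from Wnt ligands, was the 1 listed gene whose groups did not overlap. In wild type mice the region at its annotated upper end (chr11:120660451-120661150) scored 19, 78, 63 and 33 with vehicle and 174, 110, 207 and 100 with TAK-418. All 4 TAK-418 scores were above all 4 vehicle scores. The means were 48.3 ± 27.0 and 148 ± 51 (SD, n = 4), a log2 difference of 1.72 with an SE of 0.76, at the smallest exact permutation p the design allows, 0.0286, but at a limma adjusted p of 0.77 over the 2780 regions of the list. The authors' deposited table gave it a −log10 p of 10.2. A peak lay there in all 4 rich libraries and in none of the 12 sparse ones. Notum was in none of the other 3 lists.

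The region past Wls (chr3:159939351-159939900) was listed as higher with TAK-418 in 3 of the 4 lists. In heterozygotes its scores were 1628, 534, 1369 and 1865 with vehicle and 2753, 2317, 1504 and 2961 with TAK-418. The lowest TAK-418 score fell among the vehicle scores and the other 3 were above them all. The means were 1349 ± 580 and 2384 ± 645 (SD, n = 4), a log2 difference of 0.92 with an SE of 0.69 (exact permutation p = 0.0857, limma adjusted p = 0.683). It was 0.52 without vehicle position 2, the score of 534. Without the highest position of each group, which at Wls removes the lowest scores, the means were 1621 ± 248 and 2677 ± 329 (SD, n = 3), with no overlap and an exact p of 0.1.

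In wild type mice the Wls scores were 2103, 1471, 562 and 1223 with vehicle and 1931, 2390, 366 and 2835 with TAK-418, which overlapped widely. The log2 difference was 0.29 with an SE of 0.67 (exact permutation p = 0.657). It turned to −0.07 without vehicle position 3 and to −0.02 without TAK-418 position 4. Heterozygote TAK-418 against wild type vehicle gave 2896, 2462, 1623 and 3079 against 2111, 1458, 542 and 1214, a log2 difference of 1.03 with an SE of 0.62 (exact permutation p = 0.0571), which was 0.65 without wild type position 3. The authors' deposited table nevertheless gave these regions −log10 p values of 59.1, 17.5 and 73.8 in the order described. Whether the drug's difference at Wls was larger in heterozygotes than in wild type mice was not tested, since each list has its own scaling. Heterozygote against wild type vehicle did not list Wls.

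H3K4me1 gave scores of the same size at the same coordinates, in the lists whose names give no mark and that were taken to be H3K4me1. In heterozygotes they were 2103, 3907, 2281 and 2750 with TAK-418 and 2788, 3010, 2859 and 1094 with vehicle (log2 difference 0.24, exact permutation p = 0.686). Heterozygote TAK-418 gave 1914, 3535, 2070 and 2477 against 2633, 1559, 1704 and 1632 in wild type vehicle (log2 difference 0.40, exact permutation p = 0.2). Heterozygote vehicle gave 2804, 2993, 2847 and 1088 against 2868, 1730, 1879 and 1842 in wild type vehicle (log2 difference 0.15, exact permutation p = 0.886). The groups overlapped in all 3, although the authors listed each as higher in the group named first. All 4 heterozygote vehicle scores exceeded 1000, while no H3K4me1 peak was called there in heterozygote vehicle 2 and 3.

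Receptor regions were listed in both directions. Fzd8 was listed as lower with TAK-418 in wild type mice, with scores of 118, 151, 247 and 183 with vehicle and 50, 33, 242 and 51 with TAK-418. Of the TAK-418 scores, 3 were below all vehicle scores and 1 was near the highest of them. The log2 difference was −1.31 with an SE of 0.73 (exact permutation p = 0.114, limma adjusted p = 0.77), and without the highest position of each group the values did not overlap, 151 ± 33 against 44.7 ± 10.1 (SD, n = 3, exact p = 0.1). Heterozygote TAK-418 against wild type vehicle gave 46, 35, 222 and 61 against 106, 134, 192 and 141 in wild type vehicle, again with 3 scores below all vehicle scores and 1 above them (log2 difference −1.02, SE 0.81, exact permutation p = 0.143). Without the high TAK-418 score it was −1.58.

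Fzd3 was listed as lower with TAK-418 in heterozygotes (chr14:65261701-65262200). Its scores were 62, 242, 73 and 26 with vehicle and 8, 28, 156 and 34 with TAK-418. These overlapped, with a log2 difference of −1.10 and an SE of 1.02 (exact permutation p = 0.343). This was −0.53 without vehicle position 2, −0.46 without TAK-418 position 1 and −1.83 without TAK-418 position 3. Fzd2 was listed as higher with TAK-418 in wild type mice (chr11:102604501-102604850), where it scored 26, 20, 52 and 0 with vehicle and 21, 82, 173 and 53 with TAK-418. Its log2 difference of 2.29 had an SE of 1.32 (exact permutation p = 0.114) and was 1.05 without the vehicle score of 0.

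The co-receptor genes were both listed as higher with TAK-418 in wild type mice. Lrp5 (chr19:3686001-3686450) scored 37, 32, 173 and 78 with vehicle and 137, 88, 157 and 91 with TAK-418, a log2 difference of 0.84 with an SE of 0.75 (exact permutation p = 0.229). One vehicle score was above all TAK-418 scores, and the other 3 were below them all, so that the difference ran from 0.52 without vehicle position 2 to 1.32 without vehicle position 3. Lrp6 (chr6:134566401-134567100) scored 69, 122, 232 and 114 with vehicle and 96, 168, 471 and 184 with TAK-418, a log2 difference of 0.66 with an SE of 0.72 (exact permutation p = 0.314). Here the groups overlapped widely, and the difference was 0.23 without TAK-418 position 3, 0.39 without vehicle position 1 and 0.99 without TAK-418 position 1.

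Fzd4 was listed as lower in heterozygotes, with groups that overlapped widely. The region (chr7:89404501-89404950) scored 74, 133, 195 and 28 in wild type vehicle and 43, 128, 97 and 39 in heterozygote vehicle, a log2 difference of −0.34 with an SE of 0.70 (exact permutation p = 0.657). The sign turned, to 0.05, without wild type position 3. With TAK-418, heterozygotes scored 98, 13, 227 and 93 against 99, 177, 282 and 52 in wild type vehicle (log2 difference −0.79, SE 0.82, exact permutation p = 0.486), and the difference became 0.01 without heterozygote position 2.

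Of the cytoplasmic genes, Dvl1 and Apc were listed as lower in heterozygotes against wild type vehicle, whether the heterozygotes had received vehicle or TAK-418. At Dvl1 (chr4:155847601-155848050) wild type vehicle scored 51, 88, 170 and 118 and heterozygote vehicle 63, 132, 49 and 58, a log2 difference of −0.48 with an SE of 0.61 (exact permutation p = 0.343). With TAK-418 heterozygotes scored 82, 42, 165 and 18 against 72, 118, 257 and 161, a log2 difference of −1.25 with an SE of 0.83 (exact permutation p = 0.2). In each comparison the groups overlapped. With 1 score left out the first difference ran from −0.21 (without wild type position 3) to −0.78 (without wild type position 1 or heterozygote position 2), and the second was −0.72 without heterozygote position 4.

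Apc, the scaffold of the complex that destroys β-catenin, scored 76, 86, 133 and 35 in wild type vehicle and 43, 77, 28 and 31 in heterozygote vehicle, a log2 difference of −0.84 with an SE of 0.63 (exact permutation p = 0.171). With TAK-418 heterozygotes scored 0, 35, 176 and 28 against 79, 94, 145 and 35. That log2 difference of −1.94 had an SE of 1.15 (exact permutation p = 0.314), and 1 TAK-418 score was the highest of all 8 while another was 0. It was −0.48 without the score of 0, −2.97 without the highest and −1.09 with a pseudocount of 10. Ctnnb1 was listed in wild type mice as higher with TAK-418 (chr9:120933501-120934450), at 84, 162, 261 and 136 with vehicle and 221, 114, 493 and 170 with TAK-418 (log2 difference 0.53, SE 0.72, exact permutation p = 0.4). That difference ran from 0.13 without TAK-418 position 3 to 0.83 without TAK-418 position 2. Its region covers the later 127 bases of the printed window.

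Axin1, Axin2 and Wnt5b also had a listed region inside the gene, more than 2 kb from either annotated end. Axin2 was listed as lower in heterozygote against wild type vehicle (26, 36, 139 and 138 in wild type; 58, 86, 53 and 15 in heterozygotes), with a log2 difference of −0.53 and an exact permutation p of 0.486. A wider region of Axin2 was listed as higher with TAK-418 in heterozygotes (151, 342, 218 and 48 with vehicle; 220, 66, 467 and 176 with TAK-418), with a log2 difference of 0.28 and an exact permutation p of 0.686. The opposite directions share the heterozygote vehicle libraries, and in both the groups overlapped. Axin1 was listed as lower in both comparisons of heterozygotes with wild type vehicle, at log2 differences of −0.47 and −1.31 (exact permutation p = 0.486 and 0.286). The inner region of Wnt5b was listed as higher with TAK-418 in wild type mice, at 0.61 (exact permutation p = 0.4).

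Of the 4 nuclear factors and 4 antagonists, 0 were in any of the 4 lists at an end, where 17.5% of all genes were in at least 1. The median log2 difference of the pathway regions was −0.48 over 3, −0.09 over 2, 0.66 over 9 and −1.02 over 5 regions, beside −0.72, 0.57, 0.32 and −0.78 over all listed regions of the same comparisons. Of the 55 further pathway genes, 83.6% to 90.9% had a peak in single rich libraries, against 55.1% to 60.1% of all genes. These further genes were listed as lower at 6, 4, 2 and 11 genes (10.9%, 7.27%, 3.64% and 20%, against 6.95%, 2.12%, 4.4% and 9.1% of all genes). They were listed as higher at 0, 4, 7 and 0 (0%, 7.27%, 12.7% and 0%, against 0.352%, 2.19%, 5.87% and 0.749%). In both comparisons of heterozygotes with wild type vehicle, 5 of them were listed as lower: Ryk, a Wnt receptor, Tnks2, which marks AXIN for removal, Znrf3, which clears Frizzled receptors, the kinase gene Csnk1a1 and the planar polarity gene Celsr2. These comparisons share the wild type vehicle libraries, and the share of all genes listed as lower in both was not counted. Ryk and Tnks2 were also listed as lower with TAK-418 in wild type mice. Tnks2 was listed as higher with TAK-418 in heterozygotes.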

How the data were processed

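Genes and gene lists were chosen with earlier results of these data known. Per the submitters' processing notes, MACS2, MACS and bedtools were used with assembly mm10; aligner, control, threshold and duplicate handling are not given in the sources used here. For every deposited peak there is the authors' fold, a ratio over background, and −log10 p and q values. The authors' differential lists carry a deposited score per library, with normalization not given, and a −log10 p. Peaks and listed regions were assigned to a gene when within 2 kb (2000 bp) of either end in the RefSeq table. Because the deposited scores are not counts with a stated normalization, log2(score + 1) was tested with limma 3.58.1 (trended variance, Benjamini-Hochberg over each list, 0.05) in R 4.3.3 and, per region, by exact permutation. The limma code was checked on simulated data with a smaller spread between libraries than these scores have. That check does not show how small a difference limma could find here. Python 3.11.15, scipy 1.17.1, numpy 2.4.6, matplotlib 3.10.9 and pandas 2.3.3 were used. Widths and folds are those of the widest peak, whereas the colour map of peaks shows the strongest. The mark of 4 lists was inferred to be H3K4me1 because 1 of them holds 3 wild type TAK-418 scores.

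Named were all genes with a listed region, all with a peak in a sparse library, those without or with few peaks, and the 5 widest and 5 narrowest. Promoters were shown where a listed region overlaps the window. Alternatives were distances of 1 and 5 kb, a −log10 q of 5, a −log10 p of 2, a pseudocount of 10, a mean score of 50, equal medians, summed peak widths, coverage of the Wls region, and leaving out each score. No depth can be given without read counts. Intervals were not computed, and spread is given as an SD or SE. Only regions that the authors had selected between the same groups were tested, so the p-values are not an independent test. The p-values measure the spread between libraries, each from another mouse. Differences between mice and between peak-rich and sparse libraries cannot be told apart in it.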

Additional observations from a re-analysis of the deposited data

Results flagged for a closer look

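Of 45 groups of 4 values examined, 7 had a value far from the other 3. The groups are not independent, since lists share libraries, so this count was not set against a chance rate. The peak-rich libraries stood apart from their groups in the number of Wnt pathway genes with an H3K4me3 peak: 39 in heterozygote TAK-418 3, 40 in heterozygote vehicle 2 and 38 in wild type vehicle 3, against 1 to 7 in the other libraries of these groups. In H3K4me1, heterozygote TAK-418 2 had 2 genes with a peak and the other 3 had 1. Among scores, the highest value stood apart at Dvl1 in heterozygote vehicle (132, against wild type vehicle), at Fzd8 in wild type TAK-418 (242) and at Fzd8 in heterozygote TAK-418 (222, in the list set against wild type vehicle). These scores each stood at the position that was highest at most listed gene ends, and the part of that library in the listed differences was not tested beyond the values without it.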

How the results depend on the processing

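The number of genes with a listed region kept within 1.5 times under distances of 1 and 5 kb and a −log10 p of at least 2, except heterozygote against wild type vehicle, where 1 gene was left at that p. No listed region was called by limma under any alternative, except in heterozygote TAK-418 against wild type vehicle, where leaving out 1 score gave 0 to 3 regions (1 without wild type vehicle position 2, 3 without heterozygote TAK-418 position 4). A −log10 q of at least 5 lowered the median number of marked genes in the rich libraries from 39.5 to 15.5, and moved the count by over 1.5 times in 9 of 31 libraries of both marks; a distance of 5 kb did so in 2. Asking that the peak cover 50% of the listed region past Wls left 2 H3K4me3 and 1 H3K4me1 libraries, because the listed region is 550 bp wide and the peaks about 260 bp. Summed peak widths moved the median over genes from 1377 to 1441 bp.

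When 1 score was left out, 140 differences at the 19 regions kept their sign and their side of 0.05 and 4 changed sign, at 3 regions: Fzd4 in heterozygote against wild type vehicle (range −0.87 to 0.051), Wls in wild type mice (−0.074 to 0.96) and Fzd4 with TAK-418 in heterozygotes against wild type vehicle (−1.33 to 0.0076). Leaving out some 1 score moved the difference by over 1.5 times at 15 of the 19 regions and at none of Notum, Wnt4, Fzd8 in wild type mice and Apc in heterozygote against wild type vehicle. By the exact permutation test, Notum passed p under 0.05 with all 4 scores and without any 1 vehicle score. With any 1 TAK-418 score left out, the exact permutation test gave p = 0.0571, although the scores left still did not overlap. Without both highest positions the scores did not overlap either, and the exact permutation test gave p = 0.1. That is the smallest value 3 against 3 can give, so this setting could not pass. Fzd8 (without TAK-418 position 3, in both its lists), Lrp5 and Wnt4 (both without wild type vehicle position 3) reached an exact p of 0.0286. A pseudocount of 10 changed none of the 19 verdicts. No paired analysis was possible because the groups compared come from different mice and the scores name no library.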
